A study of Homo sapiens with 7 samples.

Results

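The 10 genes described here are known from other work to respond to glucocorticoid, and they were measured in cells that had been given no hormone. They are FKBP5, TSC22D3, PER1, SGK1, DUSP1, ZFP36, KLF9, NFKBIA, TAT and SCNN1A, chosen as a list of gene symbols among the 26175 genes of the deposited RNA-seq table. For each gene the steady-state RNA level was read from that table as FPKM, fragments per kilobase of transcript scaled to the mapped fragments of the library. Called start sites were taken from Start-seq, which sequences the 5’ ends of short capped RNAs and so maps where RNA polymerase II initiates. Every called gene start (gene TSS) inside the gene's listed locus, widened by 1000 nts on each side, was assigned to the gene, with the upstream antisense start (uaTSS) and downstream antisense start (daTSS) called for it. This rule found 13 of the 10391 called gene TSSs, 11 of them on the strand of their gene. The other 2 lie in the SCNN1A locus on the opposite strand.

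Transcription initiation, RNA level and chromatin were measured in 1 human breast cancer line under 1 growth condition. Its 7 samples are 2 Start-seq, 3 RNA-seq, 1 MNase-seq and 1 FAIRE-seq library. The labels name the cells T-47D, and the study's methods name the derivative T47D/A1-2, a single line that overexpresses rat glucocorticoid receptor and carries an integrated luciferase reporter driven by the MMTV promoter. All samples were grown in DMEM with 10% FBS and then kept in 5% charcoal dextran-treated serum, from which steroids have been removed, for at least 24 hours. No group received hormone, so a response to glucocorticoid was not measured. The RNA-seq table holds 1 merged number per gene for the 3 replicates, and the start sites are positions from Start-seq replicate 1 without read counts. No value therefore has an error between replicates, the depth behind each value is unknown, and no test between samples could be made.

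Glucocorticoid acts through the glucocorticoid receptor (GR), a ligand-activated transcription factor encoded by NR3C1. Without ligand the receptor is held in the cytoplasm by chaperones, and with ligand it enters the nucleus and binds DNA as a dimer, classically at an inverted repeat whose arms are separated by 3 bases. The 10 genes cover several arms of the response. FKBP5 encodes a co-chaperone that lowers the receptor's affinity for hormone, and TSC22D3 encodes GILZ, an anti-inflammatory mediator. DUSP1 is a phosphatase of MAP kinases, ZFP36 binds AU-rich mRNAs and promotes their decay, and NFKBIA is the inhibitor that holds NF-κB in the cytoplasm. PER1 is a repressor of the circadian clock and KLF9 a zinc finger transcription factor. SGK1 is a kinase and SCNN1A the alpha subunit of the epithelial sodium channel, both part of sodium transport in epithelia. TAT, tyrosine aminotransferase, is a classic glucocorticoid-induced enzyme of liver.

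The cells carried the RNA of luminal breast epithelium. All 10 luminal markers, from 1.90 for TFF1 to 1142 for KRT8, had an FPKM of at least 1, as had 60.2% of protein-coding genes. Of the markers of other cells, 1 of 4 basal, 1 of 4 fibroblast, 1 of 3 blood, 0 of 2 endothelial and 1 of 3 hepatocyte markers reached that level. KRT5, KRT14 and CD3E were listed at 0. In bulk RNA, fewer cells expressing a gene and less RNA per cell cannot be told apart.

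Sequences of 3 kinds are shown first, because the results on initiation refer to them. All are hg19 sequence, written 5’ to 3’ on the strand of the gene, and positions count the called gene TSS as +1. The first set holds the 3 called gene TSSs of these genes with a TATAA box. Capitals mark TATAA and the called first base. The windows of DUSP1 (chr5:172198194-172198243, minus strand) and of the second SGK1 call (chr6:134495995-134496044, minus strand) run from -45 to +5, and that of TSC22D3 (chrX:106960292-106960321, minus strand) from -29 to +1.
DUSP1: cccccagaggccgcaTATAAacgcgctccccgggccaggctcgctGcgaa
SGK1, second call: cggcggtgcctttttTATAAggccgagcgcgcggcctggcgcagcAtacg
TSC22D3: TATAAagaagcaggagccaaaatatctccG

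The second set holds the matches to a GR element within 5000 nts of a called gene TSS of these genes, with 5 flanking bases on each side. The element searched was GNACA and TGTNC separated by 3 bases, on both strands. Capitals mark the match.
SGK1, chr6:134497163-134497175, minus strand: ggaacGGACAAAATGTTCtcaga
SGK1, chr6:134493405-134493417, minus strand: cacagGGACACATTGTCCttact
FKBP5, chr6:35695891-35695903, minus strand: gctcgGGACATTGTGTTCcagcc
FKBP5, chr6:35655535-35655547, minus strand: gttcaGGACAGTGTGTTCagcgt
FKBP5, chr6:35699796-35699808, minus strand: gacggGCACAGGATGTTCtttcg
TSC22D3, chrX:106959317-106959329, minus strand: tctggGGACAAACTGTCCggaac
SCNN1A, chr12:6485485-6485497, minus strand: aaaaaGAACAGAATGTCCtaggg
PER1, chr17:8057779-8057791, minus strand: caagaGAACATGATGTTCccaag

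The third set shows a selection of elements of other pathways, with 5 flanking bases and the element in capitals. It holds a kappaB element at NFKBIA, a cAMP response element at DUSP1 and an E-box at PER1. Further matches at DUSP1 and FKBP5 are named with the results.
NFKBIA, chr14:35874027-35874036, minus strand: ggcttGGAAATTCCCcgagc
DUSP1, chr5:172198316-172198323, minus strand: gcgggTGACGTCAccgcc
PER1, chr17:8055890-8055895, minus strand: aggtcCACGTGcgccc

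In the absence of hormone, RNA of the 10 genes spanned a 318-fold range of FPKM, from 0.233 for SGK1 to 74.2 for NFKBIA. Each of the 10 was listed above 0, as were 69.9% of all genes. The levels fell into separate ranges. NFKBIA, FKBP5 and SCNN1A formed the upper range at 74.2, 70.6 and 60.0 FPKM. ZFP36 and TSC22D3 lay close together at 19.8 and 19.2. PER1 at 4.45, TAT at 3.63, KLF9 at 2.66 and DUSP1 at 2.05 lay within the lower range, and SGK1 was the only gene of the 10 under 1. Since each level is a single merged value, whether neighbours in this order differ beyond replicate error cannot be said.

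An FPKM of at least 1 was reached by 9 of the 10 genes, beside 46.9% of all genes in the table and 60.2% of the 17713 protein-coding genes. At a minimum of 0.5 the count was again 9, beside 50.3% of all genes, and at a minimum of 5 it was 5, beside 35.7%. The median level of the 10 was 11.8 FPKM, and the median over protein-coding genes was 4.10, with quartiles of 0.0284 and 20.9. On the scale log2(FPKM + 0.1), the median of the 10 was 3.23 and that of all genes -0.67. PER1 stood just above the protein-coding median and TAT just below it, so that 6 of the 10 genes lay above.

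**Figure D1:**
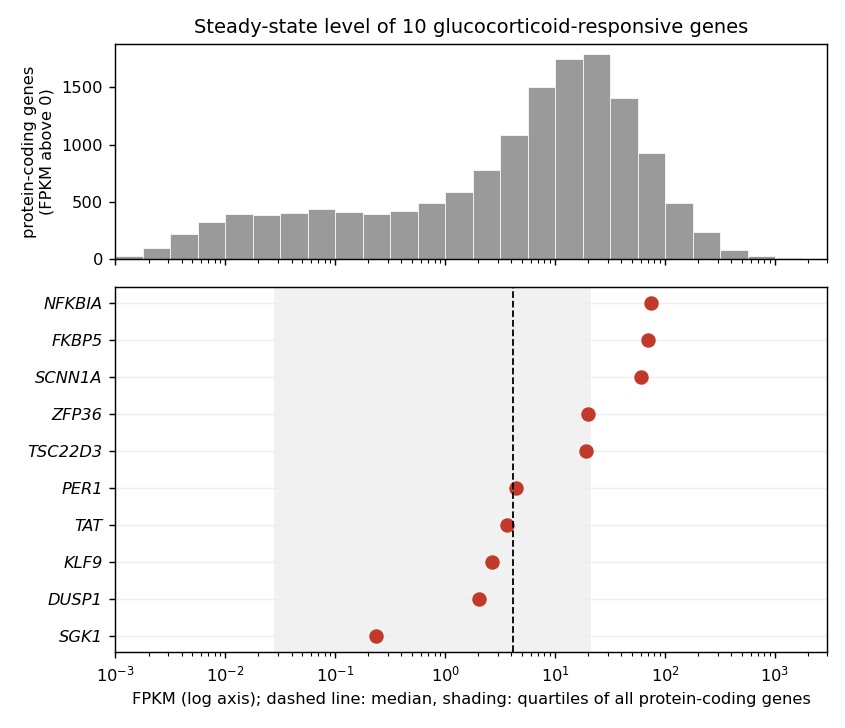
Steady-state level of each gene as FPKM on a log axis (lower panel, 1 point per gene, the authors' merged value) under the distribution of FPKM over protein-coding genes above 0 (upper panel, number of genes per bin). NFKBIA, FKBP5 and SCNN1A lie above the upper quartile of 20.9, and SGK1 at 0.233 lies far below the other genes.

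FKBP5 and NFKBIA had the highest levels of the 10. FKBP5 (ENSG00000096060, chr6:35541362-35704724, minus strand) ranked 1463 of 26175 genes from the top, at the 92.5th percentile of protein-coding genes. NFKBIA (ENSG00000100906, chr14:35870716-35873960, minus strand) ranked 1371, at the 93.0th percentile. Its RNA stood at nearly the same FPKM as that of RELA, the NF-κB subunit its product binds, which was listed at 73.9. The other inhibitors of the family were lower, NFKBIB at 11.5 and NFKBIE at 6.59.

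TSC22D3 (ENSG00000157514, chrX:106956452-107019017, minus strand) and ZFP36 (ENSG00000128016, chr19:39897487-39900052, plus strand) stood at the 73.4th and 74.0th percentiles of protein-coding genes. Their relatives TSC22D1 and ZFP36L1 were listed higher, at 40.6 and 42.4 FPKM. ZFP36L2 was lower, at 7.16. DUSP1 (ENSG00000120129, chr5:172195093-172198203, minus strand) was at the 44.1st percentile, near DUSP6 at 1.98 and DUSP4 at 3.82 FPKM, phosphatases of the same family.

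The transcriptional regulators PER1 (ENSG00000179094, chr17:8043788-8055753, minus strand) and KLF9 (ENSG00000119138, chr9:72999513-73029573, minus strand) lay at the 51.0th and 46th percentiles of protein-coding genes. The other period genes of the clock were listed at 4.54 for PER2 and 2.34 for PER3. KLF13, a close relative of KLF9, stood at 1.25.

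The 2 genes of sodium transport lay far apart, SCNN1A in the upper range and SGK1 lowest of the list. SCNN1A (ENSG00000111319, chr12:6456009-6500737, minus strand) ranked 1766 from the top, at the 90.9th percentile of protein-coding genes. SGK1 (ENSG00000118515, chr6:134490384-134639196, minus strand), whose kinase raises the amount of sodium channel at the membrane, ranked 13994, at the 33.5th percentile. Among the other channel subunits, the beta subunit SCNN1B was listed at 13 FPKM, SCNN1G at 0.512 and SCNN1D at 0.505. The related kinases SGK3 and SGK2 stood at 3.06 and 0.10. The RNA-seq table gives SCNN1A the same locus as LTBR, its neighbour on the plus strand, which was listed at 39.7.

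TAT (ENSG00000198650, chr16:71598919-71610998, minus strand) was listed at 3.63 FPKM, at the 48.8th percentile of protein-coding genes, although its product is best known from liver. HPD, the next enzyme of tyrosine breakdown, was listed at 0.190. The hepatocyte markers stood at 1.49 for ALB, 0.0170 for APOA1 and 0.0163 for TTR, and the antisense gene TAT-AS1, which shares the locus, at 0.123. The study's methods describe the RNA-seq libraries as strand-specific. Whether antisense RNA contributes to the TAT level was not tested.

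Initiation was called at 9 of the 10 genes. Over all genes of the table, 49.9% held a gene TSS in their widened locus, and 54.8% of protein-coding genes held one on their own strand. TAT was the gene without a call, also with its locus widened by 5000 nts. A call required enough 5’ ends of short capped RNA at 1 position near a RefSeq start, so that the lack of one at TAT does not show an absence of initiation.

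Among protein-coding genes the share with a called gene TSS rose with RNA level. It was 3.24% of those listed at 0, 18.4% of those above 0 and under 1, 65.5% of those at 1 to under 5, 84.3% of those at 5 to under 20 and 90.7% of those at 20 or more. FKBP5, NFKBIA and SCNN1A in the highest class all had a call, as did ZFP36 and TSC22D3 in the next. Of the 4 genes at 1 to under 5, PER1, KLF9 and DUSP1 had a call and TAT had none. SGK1 had calls in a class where 18.4% of genes had any.

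**Figure D2:**
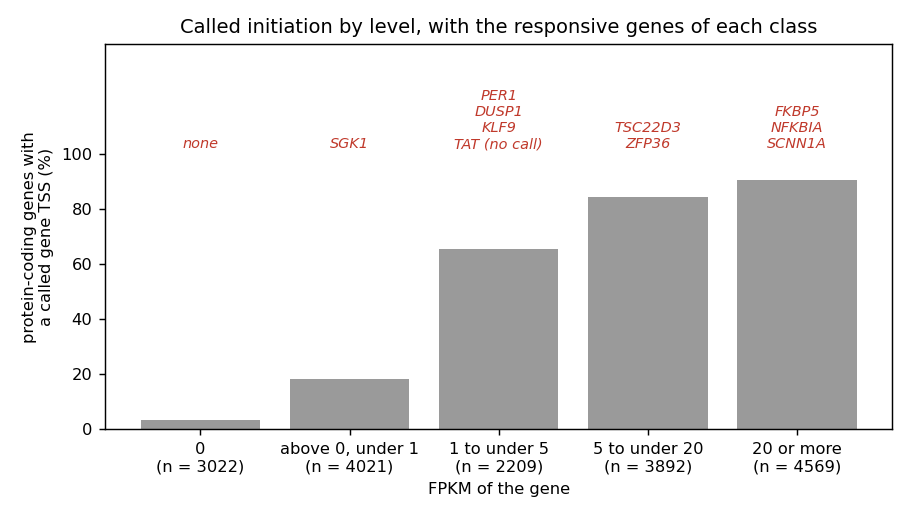
Share of protein-coding genes with a called gene TSS on their own strand (bars, percent) in 5 classes of FPKM, with the number of genes under each bar and the responsive genes of each class named above it. The share rises from 3.24% to 90.7%, SGK1 has calls in the class where 18.4% of genes do, and TAT has none in the class where 65.5% do.

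SGK1 combined the lowest RNA level of the 10 with 2 called gene TSSs. Of the 958 protein-coding genes at 0.1 to under 0.4 FPKM, 22.2% had at least 1 call on their strand and 2.61% had 2 or more. These limits bracket the level of SGK1 itself, so the shares only place it among genes of like level. SGK1 has 26 distinct annotated starts, and the shares were not matched for the number of starts. The SGK1 calls were made at 134496849 and 134495999 on the minus strand of chromosome 6, 850 nts apart. The first lies in exon 1 of ENST00000413996, 280 nts downstream of its start, and the second exactly at the start of ENST00000472859. Both lie in intron 3 of the canonical transcript, 142401 and 143251 nts downstream of its start. Neither had an antisense call. The first had no TATAA box, and the second had the one printed above, beginning at -30.

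FKBP5 was the other gene with 2 calls on its strand. Among protein-coding genes with at least 1 call, 11.1% had 2 or more. The FKBP5 calls lay 39340 nts apart at separate annotated promoters of the gene. The upstream one, at 35696059, lies in intron 1 of ENST00000536438, 301 nts downstream of its start, and the downstream one, at 35656719, is the start of ENST00000542713 and lies 27 nts upstream of the canonical start. A uaTSS was called at the upstream promoter, 118 nts away, and no antisense call was made at the downstream promoter. The sequence at the downstream call was the richest in GC of these genes, with 85.0% in 100 nts.

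The calls differed in how closely they met annotated starts. Of the 11 calls on the gene strand, 4 fell exactly on the start of a GENCODE transcript (FKBP5 downstream, TSC22D3, the second of SGK1, and DUSP1), beside 21.8% of all gene TSSs. PER1 and SCNN1A were called 9 and 4 nts downstream of a start. The other 5 calls lay more than 100 nts from the nearest start, beside 18.2% of all gene TSSs, and the median distance over all gene TSSs was 10 nts. These were the first calls of FKBP5 and SGK1 and those of ZFP36, KLF9 and NFKBIA.

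All 5 calls lay downstream of at least 1 annotated start of their gene. NFKBIA was called at 35873740 on chromosome 14, 215 nts downstream of its canonical start and within the coding part of exon 1. ZFP36 was called at 39897965 on the plus strand of chromosome 19, 478 nts downstream of its canonical start and within intron 1. It lay 114 nts upstream of the start of another transcript, ENST00000600033. KLF9 was called at 73029309 on chromosome 9, 264 nts downstream of the single annotated start and within the 5’ untranslated part of exon 1. The calling method kept 1 position per promoter, so other start sites of these genes would not be listed.

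TSC22D3 has 18 annotated starts and had 1 call, at 106960292 on chromosome X. It is the start of ENST00000503515, in intron 1 of the canonical transcript and 58725 nts downstream of its start.

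A uaTSS was called at 5 of the 11 gene TSSs, beside 53.1% of all gene TSSs, and a daTSS at 4, beside 28.4%. Both were called at TSC22D3 and DUSP1, which makes 2 of 11 beside 17.5% of all. A uaTSS alone was called at FKBP5, ZFP36 and NFKBIA, and a daTSS alone at KLF9 and SCNN1A. At SCNN1A a start on the opposite strand, 296 nts upstream, was listed as a gene TSS and not as a uaTSS. Neither was called at 4 of the 11, namely PER1, the second FKBP5 call and both SGK1 calls, beside 35.9% of all gene TSSs. These shares are counts in 1 library, and with 11 calls they were not compared by a test.

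The uaTSSs lay 118 nts upstream at FKBP5, 130 at TSC22D3, 175 at DUSP1, 318 at NFKBIA and 639 at ZFP36. The median over all 5519 uaTSSs was 200 nts, with quartiles of 127 and 329.5. ZFP36 thus had the only uaTSS of these genes beyond 400 nts, a distance found at 9.11% of all gene TSSs. This share also counts gene TSSs without a uaTSS. Of the 5519 called uaTSSs, 947 lay beyond 400 nts, and the ZFP36 distance stood at percentile 94.3 of uaTSS distances. The distances of NFKBIA and ZFP36 are counted from calls inside the gene. Counted from the canonical starts, the uaTSSs lay 103 nts upstream at NFKBIA and 161 nts upstream at ZFP36. At the upstream FKBP5 promoter the uaTSS itself lay 183 nts downstream of the annotated start.

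The daTSSs lay 249 nts downstream at KLF9, 469 at DUSP1, 1115 at SCNN1A and 1169 at TSC22D3. The median over all 2956 daTSSs was 507 nts, with quartiles of 312.75 and 804.25. Those of SCNN1A and TSC22D3 were beyond 1000 nts, as at 4.31% of all gene TSSs. That share also counts gene TSSs without a daTSS. Of the 2956 called daTSSs, 448 lay beyond 1000 nts. The distances of SCNN1A and TSC22D3 stood at percentiles 88.8 and 90.6 of daTSS distances. The daTSSs of KLF9 and DUSP1 lay in exon 1 of their gene and that of SCNN1A in an intron. The daTSS of TSC22D3 lay in exon 2 of the transcript that starts at the call.

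The SCNN1A promoter had another start site beside it, which pointed away from it on the opposite strand. Its call at 6484541 on the minus strand of chromosome 12 lay 188 nts downstream of the canonical start and had no uaTSS. A gene TSS was called on the plus strand at 6484837, which is 296 nts upstream of it, and the nearest annotated start on that strand belongs to LTBR. The second plus-strand call in the locus, at 6493265, lay 63 nts upstream of the canonical LTBR start and had a uaTSS 109 nts away. With these calls counted, as the locus rule does, 6 of the 10 genes had a uaTSS in their locus and 4 had a daTSS.

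A GR element lay within 1000 nts of 4 of the 11 gene TSSs, beside 1.91% of all gene TSSs. They were those of SGK1 (first call), TSC22D3, SCNN1A and FKBP5 (first call). Within 5000 nts the count was 7, at the 5 genes FKBP5, TSC22D3, PER1, SGK1 and SCNN1A, beside 11.3% of all gene TSSs. The 2 SGK1 calls share their elements, so that these 7 calls stand for 8 distinct elements at 5 genes. None of the 11 had an element from -250 to +50, a window with a match at 0.173% of all gene TSSs. No call had the perfect palindrome of AGAACA and its reverse complement within 1000 nts, which 0.00962% of all gene TSSs had. A single AGAACA arm on either strand lay within 1000 nts of 9 of the 11, beside 58.5% of all.

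The elements differed in position among the 5 genes. At SGK1 the first printed element was centred 320 nts upstream of the first call and 1170 nts upstream of the second. The other SGK1 element lay within the gene, in exon 8 of ENST00000413996, 3438 nts downstream of the first call. At SCNN1A the element lay 950 nts upstream and at PER1 2072 nts upstream, and each of these matched the perfect palindrome at 11 of 12 arm bases. FKBP5 had an element 162 nts downstream of its first call and one 1178 nts downstream of its second, both in intron 1, and a further one 3743 nts upstream of the first. The TSC22D3 element lay 969 nts downstream in intron 1 and matched the palindrome at 8 of 12 arm bases, the fewest of the 8 elements. The searched pattern itself fixes 8 of these 12 bases, so no match could have fewer.

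No match lay within 5000 nts of the calls of DUSP1, ZFP36, KLF9 and NFKBIA, which says only that these letters are not in that window. TAT had no call to measure from. Measured from its annotated start at 71610995, a choice made after the data were seen, the only match within 5000 nts was centred 667 nts upstream (chr16:71611656-71611668, minus strand).
TAT: gccttGGACACCCTGTGCttttc

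**Figure D3:**
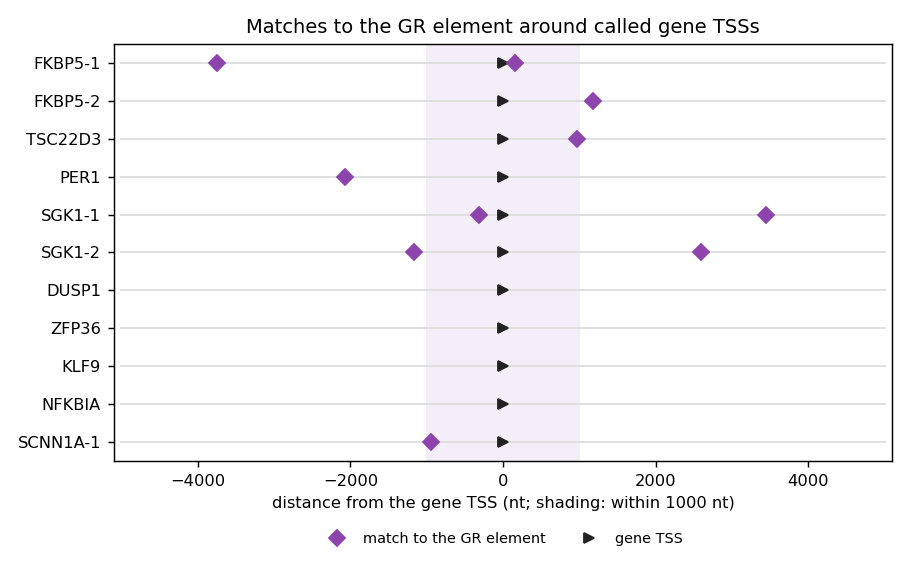
Position of each match to the GR element (diamonds) within 5000 nts of the called gene TSSs (triangles), in nts with the gene reading to the right and the range within 1000 nts shaded. Matches lie within 1000 nts of 4 calls and between 1000 and 5000 nts of others, and the rows of DUSP1, ZFP36, KLF9 and NFKBIA are empty.

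Core promoter sequence also varied within the list. TATAA began between -40 and -20 at 3 of the 11 gene TSSs, at -30 for DUSP1 and the second SGK1 call and at -29 for TSC22D3, beside 2.50% of all gene TSSs. All 3 fell exactly on an annotated start. DUSP1 and the second SGK1 call combined TATAA with a CpG island and at least 1 GC box (GGGCGG on either strand, within 100 nts upstream). TSC22D3 had neither. GC boxes were present at 4 of the 11, including 3 at PER1 and 2 at the downstream FKBP5 call, beside 50.2% of all gene TSSs. A pyrimidine followed by a purine at the call, the core of the initiator, was found at 7 of the 11, beside 66.1%.

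A CpG island covered 8 of the 11 gene TSSs, beside 82.8% of all gene TSSs. TSC22D3, KLF9 and SCNN1A had none. GC content in 100 nts around the call ranged from 49.0% at KLF9 to 85.0% at the downstream FKBP5 call, with a median of 66.0% beside 68.0% over all gene TSSs. KLF9 and TSC22D3, at 49.0% and 54%, were the 2 calls with at most 54%, as were 8.82% of all gene TSSs. The limit of 54% is the value of TSC22D3 itself, so this share only places that call among all gene TSSs.

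Elements of other pathways lay upstream of some of the calls, and with so few calls their counts were not compared with the shares by a test. A kappaB element lay within 500 nts upstream of 2 of the 11 calls, NFKBIA and the downstream FKBP5 call, beside 11.0% of all gene TSSs. The NFKBIA element printed above begins 296 nts upstream of the call and 81 nts upstream of the canonical start. A cAMP response element (TGACGTCA) lay within 300 nts upstream only of DUSP1 among these calls, beginning at -125, beside 3.19% of all gene TSSs. The E-box CACGTG, the site of the clock activators, lay within 300 nts upstream of 4 of the 11, beside 9.68%. It began at -182 at PER1, at -108 at DUSP1, at -52 at the upstream FKBP5 call and at -200 at the downstream one.

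The machinery that receives the hormone was present in the RNA of these cells. NR3C1, which encodes human GR, was listed at 5.43 FPKM and had 2 called gene TSSs. The rat receptor was not analysed here, and whether its RNA contributes to the NR3C1 level was not tested. Of the 6 genes of steroid receptors and cortisol metabolism, 5 reached an FPKM of at least 1, beside 60.2% of protein-coding genes. PGR was highest at 68.5. HSD11B2, which inactivates cortisol, was listed at 3.19, and HSD11B1, which regenerates it, at 0. All 11 chaperones of the receptor reached an FPKM of at least 1, from 18.6 for BAG1 to 661 for HSPA8, with a median of 208. FKBP4, the co-chaperone that acts against FKBP5 on the receptor, was at 208 beside 70.6 for FKBP5. All 12 coregulators reached it as well, from 5.76 for NRIP1 to 58.0 for SMARCC1, with a median of 15.5.

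A further 24 genes known to be induced by glucocorticoid ran from 0 to 40.8 FPKM. Of these, 13 reached an FPKM of at least 1, beside 60.2% of protein-coding genes, and 3 were listed at 0 (PCK1, IGFBP1 and THBD). Their median was 2.09 and STOM was highest. A gene TSS on the gene strand was called at 14 of the 24, beside 54.8% of protein-coding genes. Antisense calls can be made only where a gene TSS is called. Of these 14 genes, 7 had a uaTSS and 6 a daTSS, beside 53.1% and 28.4% of all gene TSSs. Among 18 partners and relatives of the 10 genes, 14 reached an FPKM of at least 1, with a median of 4.18, and 15 had a gene TSS on their strand.

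**Figure D4:**
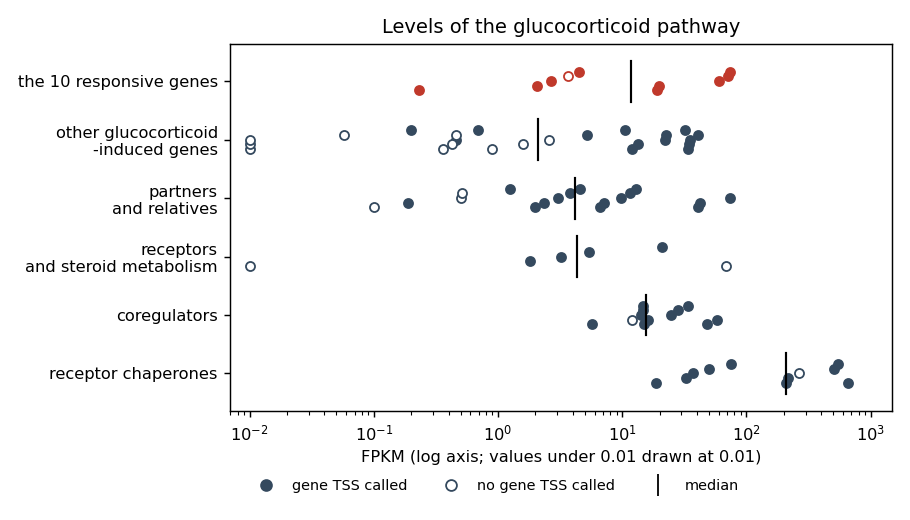
FPKM on a log axis of the 10 responsive genes (red) and of 5 lists of the pathway, 1 point per gene, filled where a gene TSS was called on the gene strand and open where none was. Black bars mark medians, which run from 2.09 for other glucocorticoid-induced genes to 208 for receptor chaperones, beside 11.8 for the 10 genes.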

How the data were processed

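Levels were taken as the deposited FPKM, which the authors computed by Cufflinks from 3 merged replicates without duplicate reads. The deposited TSS calls are single hg19 positions whose score is 0 throughout. The submitters' processing notes name Bowtie 0.12.8, TopHat2 2.0.4, Picard 1.118, Cufflinks 2.2.1 and cutadapt 1.2.1. The authors searched for calls near RefSeq starts and dropped daTSSs close to other start sites, which limits what can be listed. The second Start-seq library and the chromatin libraries were not analysed here.

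Members and lists were chosen with earlier results of these data known. The genes named are the 10 members, all genes of the 5 pathway lists and the cell type markers. Calls were placed on GRCh37 with GENCODE 44 lifted to that build, and an antisense call was joined by its shared identifier. CpG islands had at least 200 nts, 50% GC and an observed to expected CpG ratio of 0.6. Shares over all features stand beside the counts of the 10 genes and their calls, and no test was made. Assignment, motif and island searches were tested on simulated data. Python 3.11.15, numpy 2.4.6, pandas 2.3.3, numba 0.67.0, pysam 0.24.0 and matplotlib 3.10.9 were used. Alternatives concerned the FPKM minimum, pseudocount, locus, strand, motif and window.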

Additional observations from a re-analysis of the deposited data

How the results depend on the processing

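No paired analysis was possible because the RNA-seq replicates are merged into 1 value and the calls come from 1 Start-seq library, and for the same reason no replicate could be left out. Counts, percentiles and distances cannot change sign, so only the median log2 level could have reversed, and it did not. Its values over genes above 0 and over summed rows of a gene were bound to be identical. All 10 genes were above 0 and none had more than 1 row. Of 32 alternatives to the main counts and medians, 14 gave the identical value and 7 gave a count that differed by no more than 1.5 times. Those 7 were 10 in place of 9 genes with an FPKM above 0, 5, 5 and 4 in place of 6 genes with a uaTSS under other assignments of calls, and, over all calls in the loci, 5 in place of 4 with a GR element and 9 in place of 8 in a CpG island, or 7 with stricter islands. The number of genes reaching the FPKM minimum fell from 9 to 5 at a minimum of 5. The median log2 level of 3.23 became 3.39 with a pseudocount of 1, 3.21 with 0.01 and 4.27 over genes with an FPKM of at least 1. The median percentile of the 10 genes fell from 71.9 among all genes to 59.7 among genes above 0. Genes with a daTSS numbered 2 in place of 4 when daTSSs were counted within 1000 nts. The median uaTSS distance was 152.5 nts over all calls in the loci and 175 nts over calls on the gene strand, an alternative chosen after seeing the data. Gene TSSs with a GR element numbered 4 within 1000 nts, 7 within 5000 nts, 0 from -250 to +50, 0 for the perfect palindrome and 9 for a single arm. The depth behind calls and levels is unknown, so a missing call cannot be read as missing initiation.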
